A study of Rattus norvegicus with 16 samples.

Results

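Expression of 5 genes used as markers of kidney tubule injury and dedifferentiation was examined in the kidneys of male Wistar rat pups after early nephron loss. The 5 genes, Lcn2, Havcr1, Spp1, Vim and Timp1, were chosen by their Ensembl rat identifiers (ENSRNOG00000013973, ENSRNOG00000007243, ENSRNOG00000043451, ENSRNOG00000018087 and ENSRNOG00000010208) from a table of 26689 genes. In the uninephrectomy (UNX) groups the left kidney was removed under isoflurane on day 1 or day 14 of life, and sham groups were operated on at the same ages. Kidney tissue was taken 3 days after surgery, so "day 1" and "day 14" below name the day of surgery. Total RNA of 4 libraries was sequenced from each operation at each age, which makes 4 groups and 16 libraries, and no genetic change is named in the labels. The labels do not say whether a library came from a single pup or a pool, or whether pups shared a litter. They also do not say which kidney was sequenced in sham animals, so UNX and sham libraries may differ in side.

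These genes report on different parts of the response of a tubule to damage. Lcn2 encodes lipocalin 2 (NGAL), a secreted iron-siderophore carrier made by stressed distal tubule cells and by neutrophils. Havcr1 encodes kidney injury molecule 1 (KIM-1), a phagocytic receptor that the injured proximal tubule displays. Spp1 encodes osteopontin, a secreted phosphoprotein that binds integrins and CD44 and is made by tubule cells of the healthy and the injured kidney. Vim encodes vimentin, the intermediate filament of mesenchymal cells, which tubule cells re-express when they dedifferentiate. Timp1 encodes a secreted inhibitor of matrix metalloproteinases that rises in fibrosing kidneys. In the rat, nephrons are still being formed in the days after birth, and the mesenchyme that surrounds and gives rise to them contains vimentin.

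The values were regularised-log (rlog) levels, a log2 scale on which the authors had scaled libraries for depth and drawn weakly expressed genes towards their mean, so differences of weakly expressed genes are understated. A difference of 1 is a doubling. The levels are not per length and are not compared between genes. All 5 genes had a mean level of at least 3 over the 16 libraries and were among the 14845 genes tested (limma, Benjamini-Hochberg adjusted over all 14845, called at adjusted p under 0.05). In bulk tissue, fewer cells of a type and less RNA per cell cannot be told apart. The files do not pair identifiers with names, so levels of cell type markers, and a check of the tissue against them, were not analysed here. Some libraries stood apart. On the second principal component of the tested genes (6.04% of the variance), sham day 1 library 3 stood at -14.5 and sham day 14 library 4 at -12.9, against -2.58 to 5.95 in the others. The highest of the 16 values was in UNX day 14 library 3 for 47.9%, and in UNX day 14 library 1 for 20.2%, of 5051 genes with a mean level under 0, against 1.70% to 2.99% for any other library.

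None of the 5 genes passed the test for UNX against sham at either age. After surgery on day 1, 0 of 5 were called (percent called among all tested genes, 0.00674%), and after surgery on day 14, 0 of 5 (0.0539%). The genes called among all tested, 1 and 8, themselves depended on single libraries, with 0 to 2 on day 1 and 0 to 90 on day 14 when 1 library was left out. The UNX and sham values failed to overlap in 1 of 5 on day 1 (4.51% of all tested genes) and in 0 of 5 on day 14 (6.97%). Spp1 was the single member at an unadjusted p under 0.05 at each age (limma; 7.15% and 14.4% of all tested genes). The median size of the difference was 0.034 over the 5 genes and 0.048 over all tested genes on day 1, and 0.046 and 0.059 on day 14. Between the ages 2 of the 5 were called, and age cannot be told apart from a batch that followed the day of surgery. Vim and Timp1 fell from the younger to the older sham kidneys (2 of 5, percent called 45.1%) and from the younger to the older UNX kidneys (2 of 5, 45.9%), shares that lie near those of all genes. Lower levels at the older age were called in 22.5% of all genes in sham and 22.9% in UNX kidneys.

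**Figure D1:**
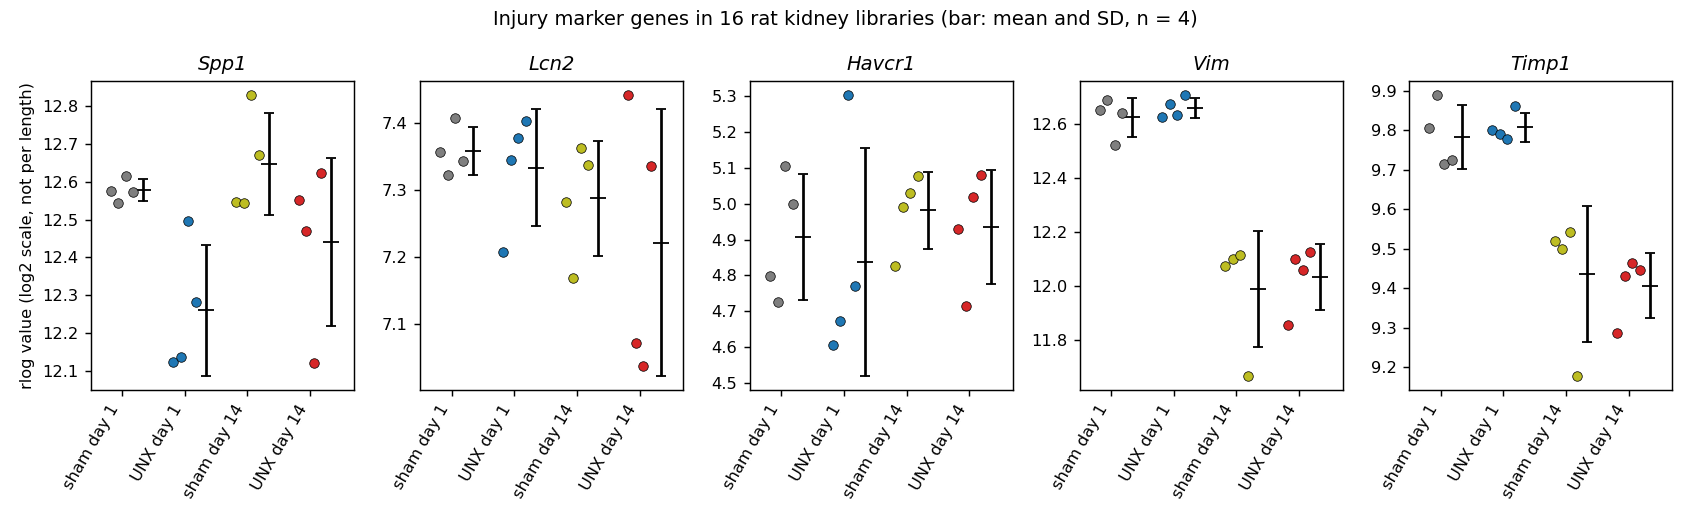
rlog level (log2 scale) of each gene in each library, with libraries 1 to 4 from left to right within a group and the mean and SD (n = 4) beside them; each panel has its own axis. All 4 UNX day 1 values of Spp1 lie under the 4 sham day 1 values (4.51% of all tested genes did not overlap there). Within sham and within UNX libraries, the day 14 values of Vim and Timp1 lie under the day 1 values. Values of the ages did not overlap, in either direction, in 36.7% of all tested genes in sham and 45.7% in UNX libraries.

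Spp1, the osteopontin gene, was the member with the lowest levels after UNX relative to sham, without passing the test. In UNX day 1 libraries 1 to 4 its rlog level was 12.12, 12.14, 12.50 and 12.28. In sham day 1 libraries 1 to 4 it was 12.58, 12.54, 12.61 and 12.57. The groups did not overlap, and UNX library 3 came closest to the sham libraries. The mean was 12.26 ± 0.17 in UNX and 12.58 ± 0.029 in sham kidneys (SD, n = 4 each), so the UNX libraries were also the more spread. Spp1 thus differed by -0.32 on the log2 scale, with an SE of 0.093 and a 95% interval of -0.51 to -0.12, which is 19.7% lower. The limma adjusted p was 0.517 (0.0029 before adjustment). By p it ranked 80 of 14845, and by size it exceeded 99.4% of the tested genes. The order of the libraries by depth, read from genes far higher in 1 library than in all others (rank 1 the deepest of 16), placed UNX day 1 at a mean rank of 5.25 and sham day 1 at 12.75. On day 14 the order was the other way round, with a mean rank of 9.25 in UNX and 6.75 in sham kidneys. The part of depth in the Spp1 differences was not tested.

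After surgery on day 14 the Spp1 levels of UNX libraries 1 to 4 were 12.55, 12.47, 12.12 and 12.62. The sham day 14 libraries 1 to 4 stood at 12.55, 12.54, 12.83 and 12.67. The groups overlapped, with UNX library 3 far under the rest and sham library 3 above them. The means were 12.44 ± 0.22 and 12.65 ± 0.13 (SD, n = 4 each). UNX kidneys were 13.3% lower, with a log2 difference of -0.21 (SE 0.093, 95% interval -0.40 to -0.01; limma adjusted p = 0.318, and 0.0388 before adjustment). Without UNX day 14 library 3, the library with the most signal in near-silent genes, it was -0.10 (limma adjusted p = 0.676). Without UNX day 14 libraries 1 and 3 together it was -0.10 (limma adjusted p = 0.861).

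The mean UNX differences of Spp1 at the 2 ages share no library. The day 14 difference minus the day 1 difference was 0.11 (95% interval -0.16 to 0.39; limma adjusted p = 0.795), an interval that includes 0. It was 0.22 without UNX day 14 library 3 (limma adjusted p = 0.534) and 0.05 without UNX day 14 library 4 (0.913). Their average, a comparison chosen after the values were seen, was -0.26 (SE 0.066, 95% interval -0.40 to -0.12), which is 16.6% lower. It did not pass the threshold (limma adjusted p = 0.204, and 0.000795 before adjustment), which 0.00674% of all tested genes passed. By size it exceeded 99.6% of the tested genes in the averaged comparison. Of the sum of squares of Spp1 over the 16 libraries, 42.5% lay between UNX and sham, 9.85% between the ages, 1.91% in their interaction and 45.8% within groups. In no other member did surgery take more than 3.93%, and its share over all tested genes was not analysed here.

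**Figure D2:**
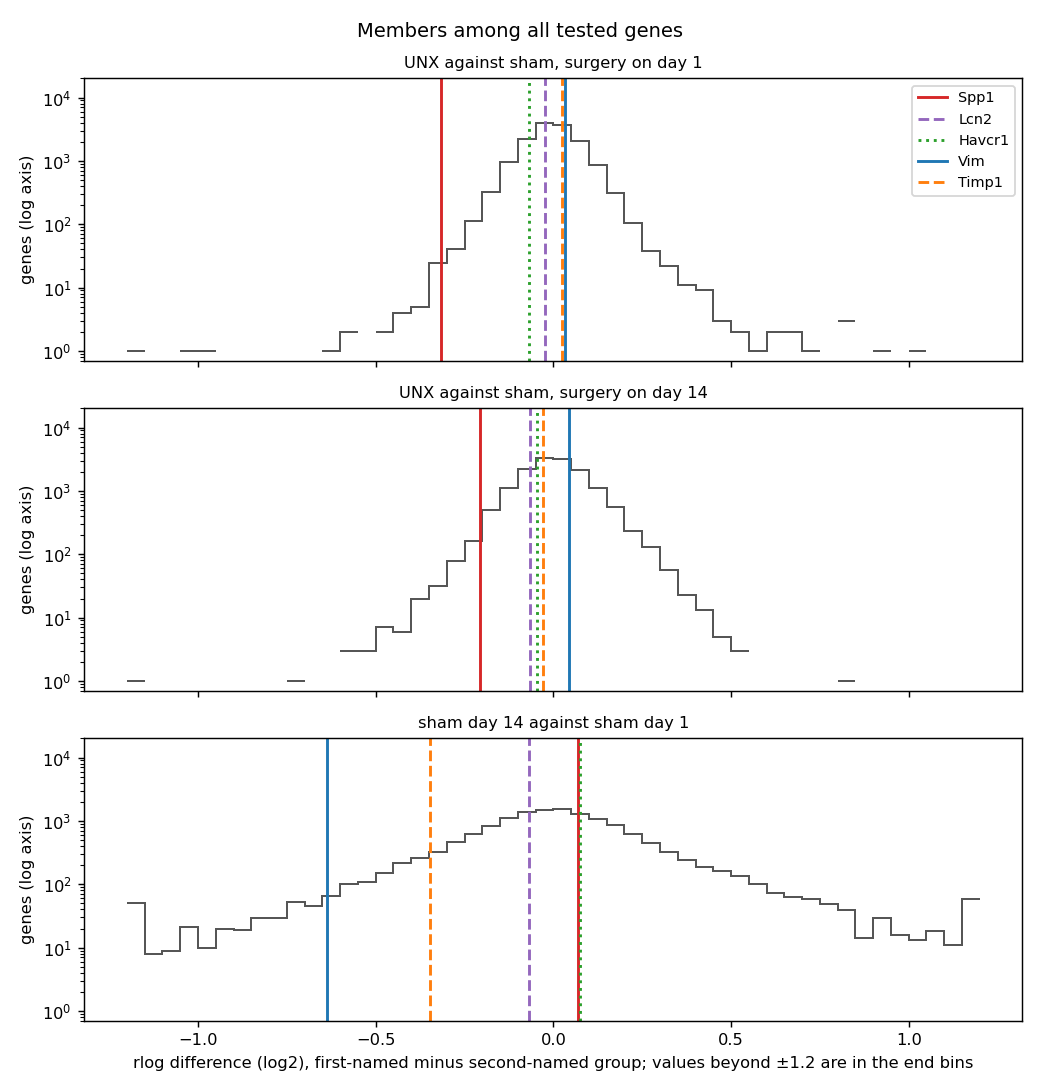
Number of tested genes (log axis) by rlog difference in bins of 0.05, for UNX against sham at each age and for sham day 14 against sham day 1, with a vertical line for each of the 5 genes. In both UNX comparisons Spp1 lies in the lower tail, at -0.32 and -0.21, while the other 4 genes lie between -0.07 and 0.05; in the age comparison Vim and Timp1 lie on the lower side.

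From the younger to the older kidneys, Spp1 differed by 0.07 in sham (95% interval -0.12 to 0.26; limma adjusted p = 0.569) and by 0.18 in UNX libraries (95% interval -0.01 to 0.38; limma adjusted p = 0.119). The UNX value depended on single libraries. It was 0.26 (limma adjusted p = 0.0281) without UNX day 1 library 3 and 0.29 (limma adjusted p = 0.00631) without UNX day 14 library 3, both past the threshold. From lowest to highest mean, the groups were ordered UNX day 1, UNX day 14, sham day 1 and sham day 14. Each neighbour in that order differed from the next by no more than the larger of their SDs.

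Lcn2, the lipocalin gene, showed no difference beyond its spread. In UNX day 1 libraries 1 to 4 its rlog level was 7.21, 7.34, 7.38 and 7.40, and in sham day 1 libraries it was 7.36, 7.32, 7.41 and 7.34. After surgery on day 14, UNX libraries 1 to 4 stood at 7.44, 7.07, 7.04 and 7.34 and sham libraries at 7.28, 7.17, 7.36 and 7.34. The UNX day 14 group spanned the widest range, 0.40, and held both the highest and the lowest of the 16 values. The log2 difference of UNX from sham was -0.02 on day 1 (95% interval -0.20 to 0.15; limma adjusted p = 0.975) and -0.07 on day 14 (95% interval -0.24 to 0.11; limma adjusted p = 0.769). As levels, these intervals run from 12.7% lower to 10.7% higher and from 15.2% lower to 7.56% higher. The day 14 difference was -0.14 without UNX library 1 (limma adjusted p = 0.538) and -0.0047 without UNX library 3 (0.992). With age Lcn2 differed by -0.07 in sham (limma adjusted p = 0.519) and by -0.11 in UNX libraries (limma adjusted p = 0.282). The UNX age difference was -0.18 without UNX day 14 library 1 (limma adjusted p = 0.0692) and -0.05 without UNX day 14 library 3 (0.659). The group means, 7.22 in UNX day 14, 7.29 in sham day 14, 7.33 in UNX day 1 and 7.36 in sham day 1, each lay within 1 SD of the next. Within groups lay 79.5% of the sum of squares.

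Havcr1, the KIM-1 gene, had the largest within-group SD of the 5 genes over the 4 groups together. That held in each day 1 group, but not on day 14. The SD was 0.16 in UNX day 14, against 0.22 for Spp1, and 0.11 in sham day 14, against 0.22 for Vim. In UNX day 1 libraries 1 to 4 its rlog level was 4.60, 4.67, 5.30 and 4.77, and in sham day 1 libraries it was 4.80, 4.72, 5.10 and 5.001. UNX day 1 library 3 was the highest of all 16 and library 1 of the same group the lowest. After surgery on day 14, UNX libraries 1 to 4 stood at 4.93, 4.71, 5.02 and 5.08 and sham libraries at 4.83, 4.99, 5.03 and 5.08. The UNX and sham ranges overlapped at both ages. The log2 difference of UNX from sham was -0.07 on day 1 (95% interval -0.33 to 0.19; limma adjusted p = 0.951) and -0.05 on day 14 (95% interval -0.31 to 0.21; limma adjusted p = 0.908). The first interval covers levels from 20.4% lower to 14.1% higher. That difference depended on single libraries, and was -0.22 without UNX day 1 library 3 (limma adjusted p = 0.807, and 0.034 before adjustment) and 0.0085 without UNX day 1 library 1 (limma adjusted p = 0.997).

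The within-group SD of Havcr1 was 0.21, above that of 97.1% of the 943 tested genes whose mean level lay within 0.5 of its own (median SD 0.11). With age Havcr1 differed by 0.07 in sham (limma adjusted p = 0.659) and by 0.10 in UNX libraries (limma adjusted p = 0.549). Without UNX day 1 library 3 the UNX value was 0.25 (limma adjusted p = 0.0451). Its group means, 4.84 in UNX day 1, 4.91 in sham day 1, 4.94 in UNX day 14 and 4.98 in sham day 14, each lay within 1 SD of the next, and 92.1% of the sum of squares was within groups.

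Vim, the vimentin gene, fell with age and did not pass the test after UNX. Its rlog level in sham day 1 libraries 1 to 4 was 12.65, 12.69, 12.52 and 12.64. In sham day 14 libraries 1 to 4 it was 12.07, 12.10, 12.12 and 11.67. The 2 ages did not overlap, and sham day 14 library 4 was the lowest of the 16. Non-overlapping values between the sham ages were found in 36.7% of all tested genes. Older kidneys were lower in Vim by 35.7%, with a log2 difference of -0.64 (SE 0.079, 95% interval -0.80 to -0.47; limma adjusted p = 2.68e-06), larger in size than in 95.3% of the tested genes. Without sham day 14 library 4 the difference was -0.53 (limma adjusted p = 4.43e-07).

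Vim also fell with age between the UNX groups. The mean difference there rests on other libraries than the sham one, but both tests share 1 estimate of the spread from all 16 libraries and are not independent. UNX day 1 libraries 1 to 4 stood at 12.63, 12.67, 12.63 and 12.71 and UNX day 14 libraries at 11.86, 12.10, 12.06 and 12.12. Again the ages did not overlap, as in 45.7% of all genes. Vim differed by -0.63 (SE 0.079, 95% interval -0.79 to -0.46), 35.2% lower (limma adjusted p = 2.8e-06). The sham and UNX age differences differed from each other by 0.01 (95% interval -0.22 to 0.24; limma adjusted p = 0.982). A batch that followed the day of surgery cannot be told apart from age. UNX differed from sham by 0.03 on day 1 (95% interval -0.13 to 0.20; limma adjusted p = 0.962) and by 0.05 on day 14 (95% interval -0.12 to 0.21; limma adjusted p = 0.850), which as levels run from 8.66% lower to 14.8% higher and from 7.94% lower to 15.7% higher. The signs of both differences depended on 1 sham library, with values of -0.00069 without sham day 1 library 3 and -0.06 without sham day 14 library 4. Age took 88.3% of the sum of squares, and surgery 0.349%. The share of age over all tested genes was not analysed here. The first principal component of the tested genes, on which the ages lay apart, took 66.3% of their variance.

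Timp1, the metalloproteinase inhibitor gene, went the same way with age by a smaller amount. Its rlog level in sham day 1 libraries 1 to 4 was 9.81, 9.89, 9.71 and 9.72, and in sham day 14 libraries 9.52, 9.50, 9.54 and 9.18. In UNX day 1 libraries it was 9.80, 9.79, 9.78 and 9.86, and in UNX day 14 libraries 9.29, 9.43, 9.46 and 9.45. Within sham and within UNX libraries, each older value lay under each younger one. Non-overlapping values between the ages, in either direction, were found in 36.7% of all tested genes in sham and 45.7% in UNX libraries. The log2 difference with age was -0.35 in sham (SE 0.068, 95% interval -0.49 to -0.21; limma adjusted p = 0.000354), 21.4% lower, and -0.40 in UNX libraries (SE 0.068, 95% interval -0.54 to -0.26; limma adjusted p = 8.1e-05), 24.2% lower. These sizes exceeded those of 83.2% and 86.5% of the tested genes. Without sham day 14 library 4 the sham difference was -0.26 (limma adjusted p = 0.000565).

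UNX differed from sham in Timp1 by 0.02 on day 1 (95% interval -0.12 to 0.17; limma adjusted p = 0.968) and by -0.03 on day 14 (95% interval -0.17 to 0.11; limma adjusted p = 0.895). These intervals were the narrowest of the 5 genes, from 7.85% lower to 12.2% higher and from 11.1% lower to 8.16% higher. The sign on day 14 also depended on a single library, and the difference was 0.01 without UNX library 1 and 0.0075 without sham library 3. Age took 80.6% of the sum of squares of Timp1, with the share over all tested genes again not analysed here.

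**Figure D3:**
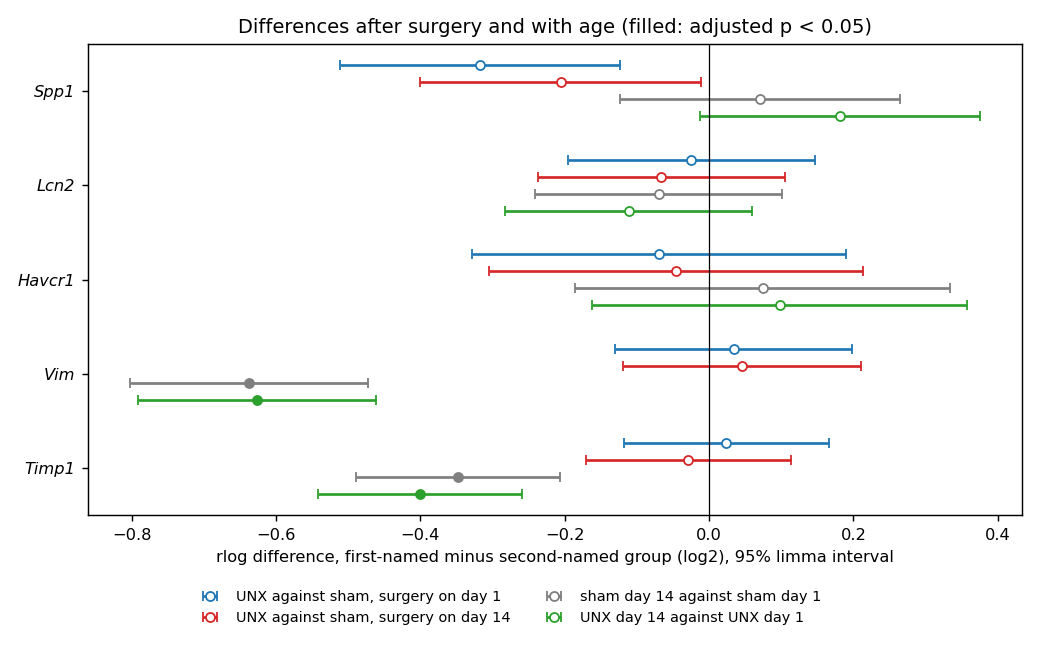
rlog differences (log2, first-named minus second-named group) of the 5 genes with 95% limma intervals, for UNX against sham at each age and for the older against the younger kidneys within sham and within UNX; filled points passed the test. The 4 filled points are the age differences of Vim and Timp1, from -0.64 to -0.35, and the UNX intervals of Spp1 are the only UNX intervals that leave out 0.

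The libraries that stood out differed between genes. Relative to the group mean, sham day 14 library 4 was low in both Vim (-0.32) and Timp1 (-0.26), and UNX day 14 library 1 was also the lowest of its group in both (-0.18 and -0.12). These 2 libraries had the highest scores on the first principal component of the tested genes, 24.5 and 22.8 against 14.8 to 18.2 in the other older libraries and -20.7 to -16.4 in the younger ones, that is, farthest on the older side. In sham day 1 library 3, Vim was likewise lowest of its group (-0.10), as was Timp1 (-0.07). In UNX day 1 library 3, Havcr1 (0.47) and Spp1 (0.24) were both the highest of their group. In sham day 1 library 3, Havcr1 (0.20), Spp1 (0.04) and Lcn2 (0.05) were also the highest of their group, by smaller amounts. UNX day 14 library 3 was the lowest of its group in Spp1 (-0.32) and in Lcn2 (-0.18), but not in Havcr1 (0.08). The part of these libraries' other properties in the members' values was not tested.

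**Figure D4:**
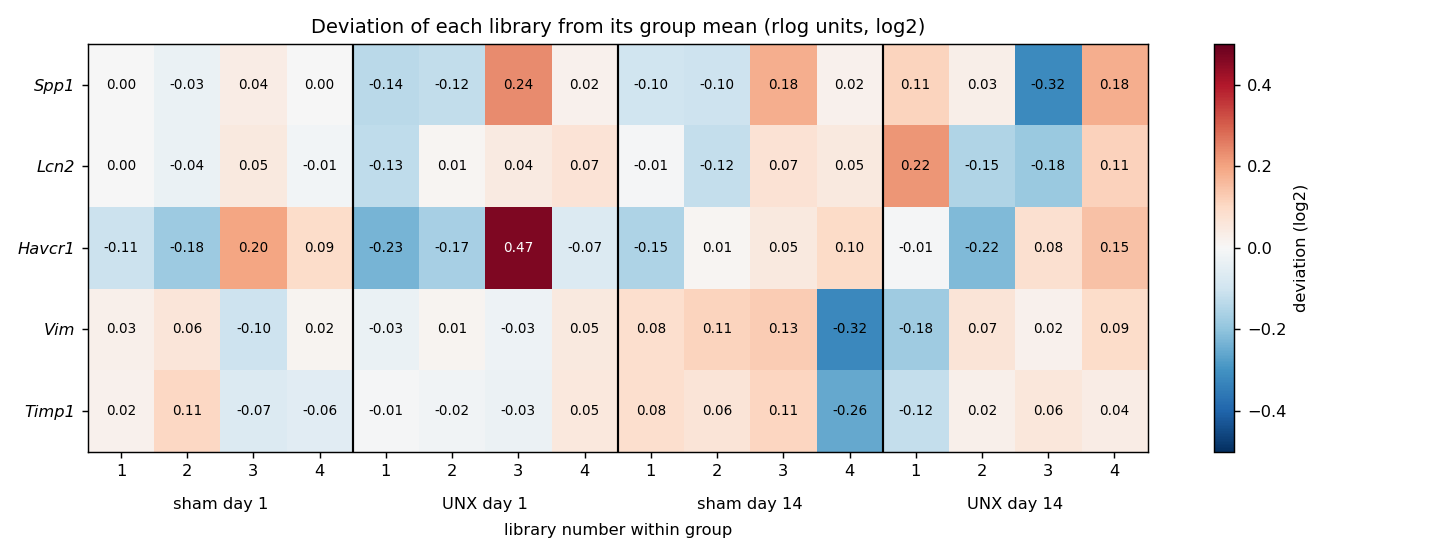
Deviation of each library from the mean of its group (rlog units, log2; red above and blue below the group mean) for the 5 genes in 16 libraries. Sham day 14 library 4 is low in Vim (-0.32) and Timp1 (-0.26), UNX day 1 library 3 is high in Havcr1 (0.47) and Spp1 (0.24), and UNX day 14 library 3 is low in Spp1 (-0.32).

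The within-group SD over the 4 groups was 0.16 for Spp1, 0.13 for Vim, 0.12 for Lcn2 and 0.11 for Timp1, and the median over all tested genes was 0.09. Among tested genes of a like level (mean within 0.5), it exceeded that of 95% for Spp1, 88.6% for Vim, 80.3% for Timp1 and 59.3% for Lcn2. The intervals of the UNX differences therefore reached 0.26 to each side for Havcr1 and 0.19 for Spp1, against a median of 0.14 over all tested genes. A difference in the UNX effect between the 2 ages was called in 0 of 5 genes (percent called 0%, with 10.7% of all genes at an unadjusted p under 0.05 and 0 of the 5). Its estimates for Lcn2, Havcr1, and Timp1 were -0.04 (95% interval -0.28 to 0.20), 0.02 (-0.34 to 0.39) and -0.05 (-0.25 to 0.15).

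The RefSeq table of promoters, on build GRCr8, held an entry for each of the 5 genes. The build of the expression table is not stated in the labels and may be another. The 250 bases before the RefSeq start are shown for Vim and Timp1, which fell together with age, and for Spp1, the member with the largest UNX difference. Bases are given 5′ to 3′ on the gene's strand, and capitals mark matches on either strand to the TATA box letters TATAAA, to the letters CCAAT that are known as the CCAAT box, or to the letters GGGCGG that are known as the GC box.
Vim promoter, chr17:81577011-81577260, plus strand: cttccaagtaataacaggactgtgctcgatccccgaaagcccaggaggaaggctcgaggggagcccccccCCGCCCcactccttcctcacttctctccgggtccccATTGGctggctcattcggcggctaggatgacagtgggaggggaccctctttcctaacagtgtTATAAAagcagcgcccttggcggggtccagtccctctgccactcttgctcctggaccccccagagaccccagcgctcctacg
Timp1 promoter, chrX:3771123-3771372, minus strand: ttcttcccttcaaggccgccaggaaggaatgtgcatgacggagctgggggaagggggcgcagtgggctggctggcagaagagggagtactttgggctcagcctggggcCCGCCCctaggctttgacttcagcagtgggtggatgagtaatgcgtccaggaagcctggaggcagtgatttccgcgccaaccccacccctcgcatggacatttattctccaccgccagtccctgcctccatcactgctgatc
Spp1 promoter, chr14:5619805-5620054, minus strand: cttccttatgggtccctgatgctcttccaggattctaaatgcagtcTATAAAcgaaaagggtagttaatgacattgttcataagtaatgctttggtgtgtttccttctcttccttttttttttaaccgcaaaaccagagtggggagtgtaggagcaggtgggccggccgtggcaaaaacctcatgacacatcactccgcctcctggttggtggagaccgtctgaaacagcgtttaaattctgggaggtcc

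Vim and Timp1 each held 1 match to GGGCGG, which occurs in 30.5% of the 33469 promoters of the same length. The match lay 180 to 175 bases before the start in Vim and 142 to 137 bases before it in Timp1, both on the strand opposite to the gene. Vim also held 1 match to TATAAA, 82 to 77 bases before the start (12.9% of promoters hold it), and 1 to CCAAT, 144 to 140 bases before it (34%). Spp1 held 1 match to TATAAA, 204 to 199 bases before the start. A search for the AP-1 letters TGANTCA (6.34% of promoters) found 0 matches in the 5 genes, and Lcn2 and Havcr1 held none of the other 3 motifs. The GC content of these windows was 62.4% in Vim, 61.2% in Timp1, 57.2% in Lcn2, 46.8% in Spp1 and 39.2% in Havcr1, against a median of 51.2% over all promoters. No motif overlapped another in the windows shown, and a match describes letters, not binding.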

How the data were processed

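Total kidney RNA was sequenced after DNase treatment with Ovation Universal libraries and depletion of unwanted sequences, per the labels' protocols. The submitters' processing notes name DESeq2, featureCounts, Subread 1.5.1, STAR 2.4.0 and BWA 0.7.14, with no roles. The sources used here do not give the genome build, annotation, strand setting or whether rlog knew the groups. The authors deposited rlog levels, which are log2 values, with 1 column per library, going by the table's name and its values. Columns headed CO were taken as sham libraries. No 2 libraries held identical values. Read totals are not given, so depth is unknown, and 151 genes far higher in 1 library than in all others gave an order only.

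One mean per group was fitted over 16 libraries with limma 3.58.1 in R 4.3.3 (12 residual and 6.88 prior degrees of freedom, mean-variance trend, two-sided). Whether libraries are separate pups is not stated, so a p-value reflects only how far these samples spread, which may be technical. The fit was tested on simulated data with normal noise and the same SD per gene in all groups. That setting holds no outlying libraries and no unequal group SDs. Other steps used Python 3.11.15, numpy 2.4.6, scipy 1.17.1, pandas 2.3.3 and matplotlib 3.10.9. Alternatives covered the filter, scaling, variance model, weights, libraries, library number and threshold. The members, lists and tests were chosen with earlier results of these data known. The rule for named genes was the 5 members, plus genes of lists fixed by symbol, of which 0 of 26689 identifiers could be matched, so these lists were not analysed here. Equal library numbers were not treated as pairs in the main fit.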

Additional observations from a re-analysis of the deposited data

Results flagged for a closer look

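The 5 genes were screened in each of the 4 groups of 4 libraries for a library whose gap to its nearest neighbour passed Dixon's test at its 95% critical value for 4 samples, which chance passes in about 1 of 20 groups. Of 20 groups, 2 passed, both through sham day 14 library 4. Vim stood at 11.6659 there, under the other 3 sham day 14 libraries at 12.07 to 12.12. Timp1 stood at 9.17883, under the others at 9.50 to 9.54. That library also had the highest score on the first principal component, 24.5, followed by UNX day 14 library 1 at 22.8. On the second it stood apart at -12.9, together with sham day 1 library 3 at -14.5. The cause was not tested.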

How the results depend on the processing

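Vim and Timp1 fell with age in sham and in UNX libraries under every one of the 27 alternatives, with log2 differences of -0.68 to -0.53 and -0.38 to -0.26 in sham and -0.66 to -0.55 and -0.42 to -0.36 in UNX libraries (limma adjusted p at most 0.00425). No member passed for UNX against sham under any alternative. Spp1 kept its direction, from -0.40 to -0.27 on day 1 (limma adjusted p 0.335 to 0.822), from -0.27 to -0.10 on day 14 (0.184 to 0.861) and from -0.30 to -0.21 in the average (0.0834 to 0.706). Leaving out 1 library at a time gave 2 to 4 members called for UNX day 14 against UNX day 1. The 4 came without UNX day 1 library 3, where Havcr1 and Spp1 also passed. In that fit 6267 of the 14845 tested genes were called. The other counts of members called were the same under all alternatives.

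Small differences changed sign without passing the test. Leaving out 1 library at a time gave, for UNX against sham on day 1, -0.048 to 0.017 in Lcn2, -0.22 to 0.0085 in Havcr1 and -0.00069 to 0.055 in Vim. On day 14 the ranges were -0.097 to 0.028 in Havcr1, -0.062 to 0.10 in Vim and -0.11 to 0.012 in Timp1. For the difference between the ages they were -0.11 to 0.020 in Lcn2, -0.054 to 0.18 in Havcr1 and -0.096 to 0.071 in Vim, and, with no change of sign, 0.051 to 0.22 in Spp1 and -0.14 to -0.012 in Timp1. Without sham day 1 library 3 and sham day 14 library 4 together, Vim was -0.00069 on day 1, -0.062 on day 14 and -0.061 in the difference, and Havcr1 was -0.011 in the difference. Without UNX day 14 libraries 1 and 3, Timp1 was 0.0031 on day 14 and Havcr1 -0.014 in the difference. With array weights Vim was -0.00076 in the difference. The cause was not tested.

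Whether equal library numbers pair samples is not stated, and the values do not settle it. Correlations of same-numbered deviations ran from -0.228 to 0.119, and 5 of 16 were highest with their own number. Between UNX and sham on day 1, libraries 1, 2 and 4 were highest with their own number. The SE of Havcr1 for UNX against sham on day 1 was 0.124, and 0.091 with the library number as a block (replicate block). Its limma adjusted p was 0.951 and 0.935. With the replicate block the members called were the same, 0, 0, 2, 2 and 0, Spp1 on day 1 had a limma adjusted p of 0.598, and calls among all genes were 0 on day 1 (1 without it) and 8 on day 14 (8 without it). Among all genes the day 14 calls were unstable, reaching 90 once UNX day 14 library 4 was dropped and 22 once sham day 14 library 2 was. They fell to 0 once UNX day 14 library 1 or 2, or sham day 14 library 3, was dropped. Calls were also 0 with no filter, and with only the compared groups in the fit. With a mean of at least 5 Havcr1 was not tested. Depth is unknown, so no counting error was given.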
